A study of Rattus norvegicus with 18 samples.

Results

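The peroxisome proliferator-activated receptors (PPARs), their retinoid X receptor (RXR) partners, the PGC-1 coactivators and 3 classical PPAR target genes were followed in rat fibroblasts with and without MYC and after knockdown of the aryl hydrocarbon receptor (AHR). The group was chosen by symbol, with earlier results of these data known: Ppara, Ppard, Pparg, Rxra, Rxrb, Ppargc1a, Ppargc1b, Pdk4, Angptl4 and Plin2. All 10 were present among the 13188 genes of the expression table. Poly-A RNA was sequenced from 18 libraries of HO15.19, a single line of Rat1 fibroblasts without functional endogenous myc (myc-/-), in 6 groups of 3. One group was myc-/- cells without introduced MYC, which the study describes as carrying vector and the labels only as untransfected, and one was myc-/- cells that express human MYC from a stably integrated virus (myc-/- + MYC). Both also exist with a control siRNA (siCtrl). In the last pair of groups, Ahr was knocked down in the MYC-expressing cells by 1 of 2 siRNAs (siAHR-2 or siAHR-5). All cells grew in 10% serum, and transfected cells received siRNA at 40 nM and were harvested after 48 h.

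PPARs are nuclear receptors that sense fatty acids. Each binds DNA as a dimer with an RXR, recruits coactivators such as PGC-1α (Ppargc1a) and PGC-1β (Ppargc1b), and raises transcription of genes for the uptake, storage and burning of fat. PPARα is best known from liver, PPARδ is found in most tissues, and PPARγ directs the formation of fat cells, for which fibroblast lines are a common starting point.

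Promoter sequence is shown for the 3 genes on which the comparisons of MYC turn: Ppara, a receptor lower with MYC in both sets of libraries, Ppargc1a, a coactivator higher in both, and Angptl4, the target with the largest difference. Promoters of 9 of the 10 genes were matched by symbol in RefSeq (assembly GRCr8). The 250 bases before the annotated start are given 5′ to 3′ on the gene's strand, with the core letters to which AHR binds, GCGTG on either strand, in capitals. The stretches lie at chr7:118712357-118712606 (plus strand), chr14:63634058-63634307 (plus strand) and chr7:15258682-15258931 (minus strand).
Ppara: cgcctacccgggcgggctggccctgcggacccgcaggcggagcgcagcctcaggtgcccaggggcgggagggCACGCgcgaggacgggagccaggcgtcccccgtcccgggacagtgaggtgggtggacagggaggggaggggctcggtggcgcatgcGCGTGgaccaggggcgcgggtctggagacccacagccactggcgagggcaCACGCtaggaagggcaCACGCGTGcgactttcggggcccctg
Ppargc1a: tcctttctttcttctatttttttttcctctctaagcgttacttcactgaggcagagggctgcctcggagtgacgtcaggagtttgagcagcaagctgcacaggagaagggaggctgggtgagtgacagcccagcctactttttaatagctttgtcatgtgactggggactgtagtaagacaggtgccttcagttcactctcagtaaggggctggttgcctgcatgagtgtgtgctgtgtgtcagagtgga
Angptl4: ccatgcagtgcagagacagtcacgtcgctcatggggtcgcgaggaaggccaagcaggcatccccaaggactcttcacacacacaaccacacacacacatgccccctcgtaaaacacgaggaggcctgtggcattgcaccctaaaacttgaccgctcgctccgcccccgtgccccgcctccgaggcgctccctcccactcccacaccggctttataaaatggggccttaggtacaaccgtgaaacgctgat
The Ppara stretch held 5 matches to GCGTG, with first bases at -178, -92, -42, -26 and -23 from the start, of which the last pair share bases. The Ppargc1a and Angptl4 stretches held none. Counted in windows that add 50 bases after the start and on both strands, GCGTG was in 2 of the 9 promoters (Ppara and Ppargc1b) and in 29.7% of 33469 RefSeq promoters. The PPAR and RXR half-site AGGTCA was in 0 of 9 and in 16.2% of all promoters. Its direct repeat with 1 base between, AGGTCANAGGTCA, which contains the half-site, was in 0 of 9 and in 0.0538%. The canonical E-box CACGTG, to which MYC binds, was in 0 of 9 and in 6.42%. The paper also lists non-canonical E-boxes, which were not searched for here, so this count does not show promoters without E-boxes. A match is only a match of letters in this window.

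The deposited log2 values fell into 2 sets on different scales, and levels are compared only inside a set. A 6-library set consists of myc-/- + MYC and myc-/- siCtrl. A 12-library set consists of the siAHR groups, their siCtrl group with MYC, and myc-/-. By the sample labels each MYC comparison therefore sets transfected against untransfected cells, in opposite order in the 2 sets. The table's own names for the columns of the 6-library set (control and Myc) mention no siRNA, so transfection in that set rests on the sample labels alone. Taken as labelled, inside each set the effects of MYC and of transfection cannot be told apart. Library 2 of myc-/- stood apart: the SD of its gene-by-gene differences from the others of its group was 0.174 and 0.171, against 0.0788 between those others and 0.0706 to 0.122 within the other groups. Ahr, the target of the siRNAs, was at 13.34, 13.26 and 13.23 in myc-/- + MYC siCtrl, at 11.97, 11.97 and 12.03 with siAHR-2 and at 11.95, 11.76 and 11.94 with siAHR-5. The row of the rat gene Myc was lower in the groups labelled with MYC (log2FC -1.26 in the 6-library set and -2.68 in the 12-library set). The introduced MYC is human and the reads were aligned to the rat genome, so this row does not check the MYC label. Ahr had a log2FC of 0.52 with MYC in the 6-library set and of 1.40 in the 12-library set. Read depth is unknown, because the values keep no counts, and nothing in the labels says that the libraries of a group came from separate cultures, so p-values measure the spread between these libraries.

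With MYC, Angptl4 and Ppara fell and Ppargc1a rose in both sets. The other changes past the cutoffs were seen in 1 set each: Rxrb and Pdk4 were higher in the 6-library set, Ppard was higher in the 12-library set, and Rxra and Plin2 were lower in the 12-library set. Passing in 1 set and not the other does not show that the sets differ, which was tested separately. Pparg was close to its lowest value in all libraries. A gene was called changed at a log2 fold change (log2FC) of at least 0.585 in size, which is a fold of 1.5, with a limma adjusted p of at most 0.01. In the 6-library set, 5 of the 10 genes were called, 3 higher and 2 lower. Of all genes 26.8% were called, 12.5% higher and 14.3% lower. The 12-library set had 6 of the 10 called, 2 higher and 4 lower. Of all genes 25.5% were called, 10.8% higher and 14.7% lower. With the myc-/- library that stood apart left out, the count of 6 was the same, and it was 4 or 5 with any other single library left out. Of all genes, 3263 to 3413 were called with single libraries left out. The median size of the log2FC over the 10 genes was 0.55 and 0.66 in the 6- and 12-library sets, against 0.29 and 0.28 over all genes. Because the 10 genes were chosen with earlier results of these data known, neither these medians nor the counts called test the group against all genes. The 2 groups of each MYC comparison did not overlap for any of the 10 genes. That was also true of 78.8% of all genes in the 6-library set and of 70.5% in the 12-library set.

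**Figure D1:**
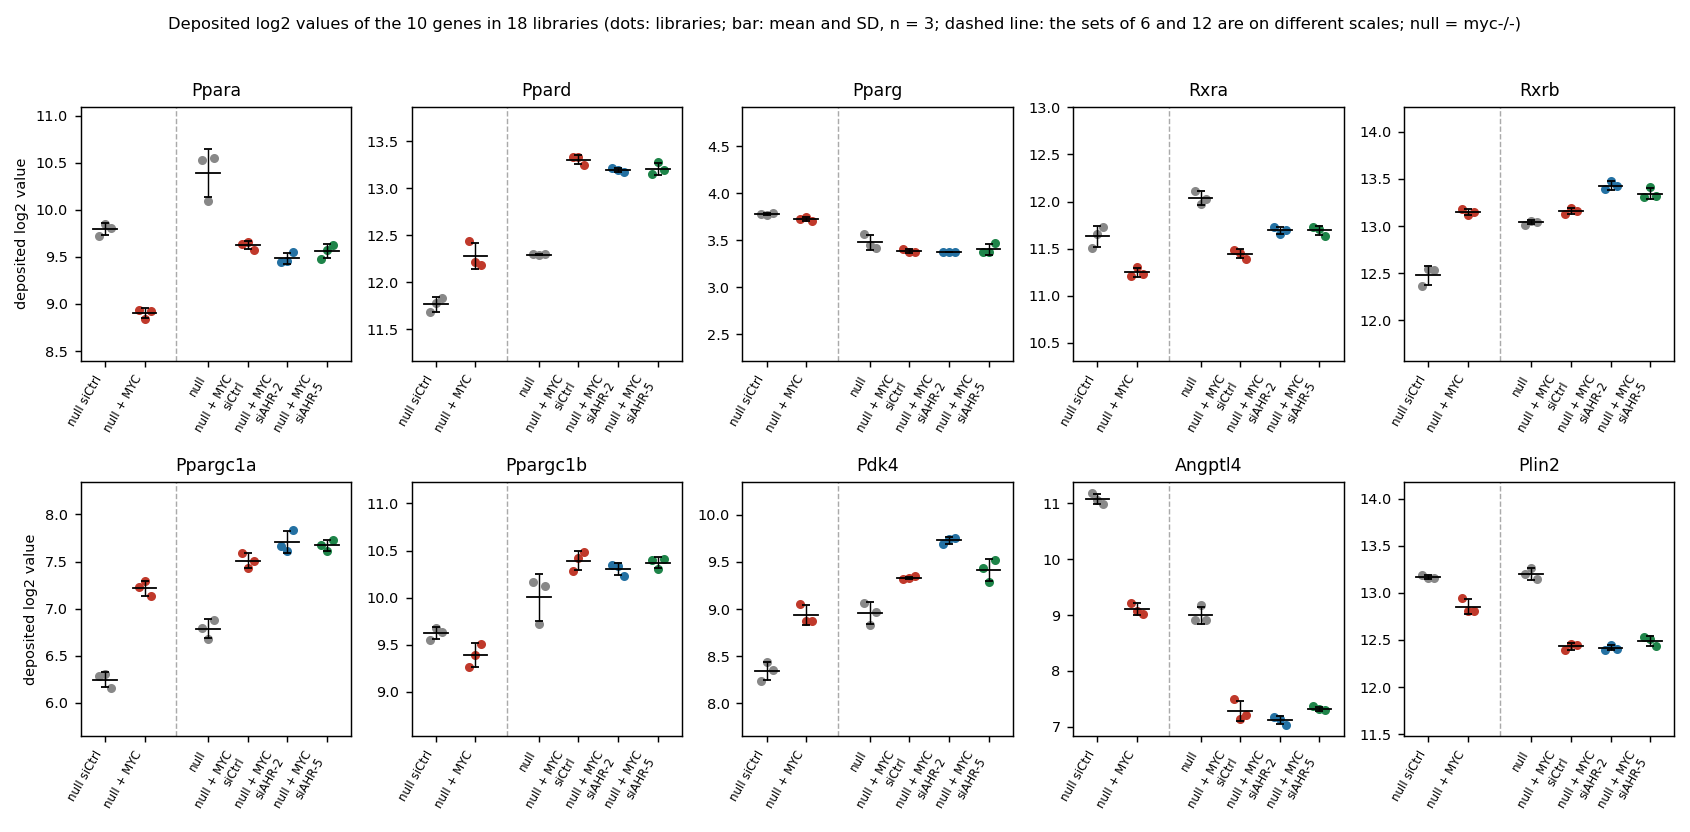
Deposited log2 value (vertical axis) of each of the 10 genes in the 18 libraries, 1 panel a gene, with dots for libraries and bars for the group mean and SD (n = 3). The dashed line separates the 6- and 12-library sets, which are on different scales. Angptl4 lies between 9.02 and 9.22 with MYC and between 10.997 and 11.18 without in the 6-library set.

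Among the receptors, Ppara, whose targets include the enzymes of fatty acid oxidation, was lower with MYC. Its log2 values in the smaller set were 9.72, 9.85 and 9.80 in myc-/- siCtrl and 8.93, 8.84 and 8.93 in myc-/- + MYC. Its log2FC was -0.89 (SE 0.0581, limma adjusted p = 7.08e-08), a level 1.85-fold lower. The larger set had 10.53, 10.10 and 10.55 in myc-/- and 9.64, 9.66 and 9.58 in myc-/- + MYC siCtrl. The lowest of the myc-/- values belonged to the library that stood apart, and it was still above every library with MYC. The log2FC was -0.77 (SE 0.130, limma adjusted p = 0.00266). Without that library it was -0.91 (limma adjusted p = 6.53e-05), while leaving out any 1 of the other 5 libraries moved the adjusted p to between 0.0107 and 0.0149, past the cutoff. Blocking on the replicate number also ended the call (log2FC -0.77, limma adjusted p = 0.0106).

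Ppard, the broadly expressed receptor, differed in the other direction. It was at 11.68, 11.79 and 11.83 without MYC and at 12.44, 12.21 and 12.18 with MYC in the 6-library set. This gave a log2FC of 0.51 (SE 0.0657, limma adjusted p = 2.31e-05), short of the fold cutoff. For the larger set the values were 12.30, 12.29 and 12.30 in myc-/- and 13.33, 13.33 and 13.24 in myc-/- + MYC siCtrl. Here the groups were tight and far apart, with a log2FC of 1.01 (SE 0.0334, limma adjusted p = 2.82e-06), a level 2.01-fold higher.

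Pparg, the receptor of fat cell formation, was at the low end of the table, its mean at percentile 12.8 of all genes in the 6-library set and 12 in the 12-library set. Its values spanned 3.70 to 3.79 over the 6-library set and 3.37 to 3.57 over the 12-library set. At 2 decimals the lowest value, 3.37, was that of all 3 siAHR-2 libraries and of 2 libraries each of siCtrl and siAHR-5. The log2FC with MYC was -0.06 (limma adjusted p = 0.0804) and -0.10 (limma adjusted p = 0.0842). Near such a floor a difference may not be detectable.

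The RXRs are the obligate partners of the PPARs and of several other receptors. Rxra was at 11.50, 11.66 and 11.73 in myc-/- siCtrl and at 11.21, 11.30 and 11.23 in myc-/- + MYC, a log2FC of -0.38 (SE 0.0565, limma adjusted p = 8.18e-05) short of the fold cutoff. It was at 12.12, 11.97 and 12.03 in myc-/- and at 11.49, 11.45 and 11.39 in myc-/- + MYC siCtrl of the larger set. This was a fall of 0.59 (SE 0.050, limma adjusted p = 1.2e-04), just past the fold cutoff. It was -0.57 under quantile normalization, -0.55 with each library centred on its median, -0.57 without library 3 of myc-/- + MYC siCtrl and -0.56 without library 1 of myc-/-, and in none of these 4 was it called.

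Rxrb was at 12.36, 12.54 and 12.53 in myc-/- siCtrl and at 13.18, 13.11 and 13.15 in myc-/- + MYC. It rose by 0.67 (SE 0.0475, limma adjusted p = 1.45e-07). The gap was narrower in the 12-library set. Its values were 13.02, 13.06 and 13.05 in myc-/- against 13.12, 13.19 and 13.16 in myc-/- + MYC siCtrl, a log2FC of 0.12 (SE 0.0295, limma adjusted p = 0.0136).

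Of the coactivators, Ppargc1a, known for driving mitochondrial biogenesis, was the member with the largest rise in the 6-library set. It was at 6.28, 6.30 and 6.15 in myc-/- siCtrl and at 7.23, 7.29 and 7.13 in myc-/- + MYC, a log2FC of 0.97 (SE 0.0643, limma adjusted p = 8.21e-08) or 1.96-fold. It was at 6.80, 6.68 and 6.88 in myc-/- and at 7.59, 7.43 and 7.51 in myc-/- + MYC siCtrl of the 12-library set. The rise was 0.72 (SE 0.0718, limma adjusted p = 2.4e-04) or 1.65-fold. Every library with MYC was above every library without it in both sets.

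Ppargc1b, the related coactivator, had opposite signs in the 2 sets, and neither was called. Values of the 6-library set were 9.55, 9.68 and 9.64 without MYC and 9.26, 9.39 and 9.51 with it (log2FC -0.23, SE 0.0702, limma adjusted p = 0.0103). Those of the 12-library set were 10.17, 9.72 and 10.12 in myc-/- and 10.28, 10.42 and 10.48 in myc-/- + MYC siCtrl (log2FC 0.39, SE 0.135, limma adjusted p = 0.0444). The lowest of these again came from library 2 of myc-/-, and without it the log2FC was 0.25.

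The 3 target genes did not move as one. Angptl4, which encodes a secreted inhibitor of lipoprotein lipase, had the largest difference of the 10 genes in both sets. It was at 11.18, 11.07 and 10.997 in myc-/- siCtrl and at 9.22, 9.08 and 9.02 in myc-/- + MYC. The fall was 1.97 on the log2 scale (95% interval of the log2FC -2.12 to -1.83, limma adjusted p = 2.83e-10), or 3.93-fold lower, and the gene ranked 255 of 13188 by size of fall. Values of the larger set were 8.92, 9.17 and 8.91 in myc-/- and 7.49, 7.14 and 7.22 in myc-/- + MYC siCtrl. This log2FC was -1.72 (95% interval -2.02 to -1.41, limma adjusted p = 6.06e-05), or 3.28-fold lower. Both calls held under each alternative tried.

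Plin2, which coats lipid droplets, was at 13.19, 13.16 and 13.16 in myc-/- siCtrl and at 12.94, 12.81 and 12.81 in myc-/- + MYC (log2FC -0.32, SE 0.0398, limma adjusted p = 1.99e-05), short of a 1.5-fold change. The larger set had it at 13.20, 13.27 and 13.14 in myc-/- and at 12.39, 12.45 and 12.45 in myc-/- + MYC siCtrl. There it fell by 0.77 (SE 0.0415, limma adjusted p = 1.78e-05), or 1.71-fold lower.

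Pdk4, a kinase that switches off the pyruvate dehydrogenase complex and so spares glucose when fat is burned, was higher with MYC. It was at 8.24, 8.43 and 8.36 in myc-/- siCtrl and at 9.06, 8.87 and 8.87 in myc-/- + MYC. The rise of 0.59 (SE 0.0747, limma adjusted p = 2.11e-05) was just past the fold cutoff. With libraries centred on their medians it was 0.55, without library 1 of myc-/- siCtrl 0.54 and without library 1 of myc-/- + MYC 0.53, and it was not called in these. The other set had it at 9.06, 8.83 and 8.97 in myc-/- and at 9.32, 9.33 and 9.35 in myc-/- + MYC siCtrl (log2FC 0.38, SE 0.0702, limma adjusted p = 0.00403), again short of the cutoff.

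**Figure D2:**
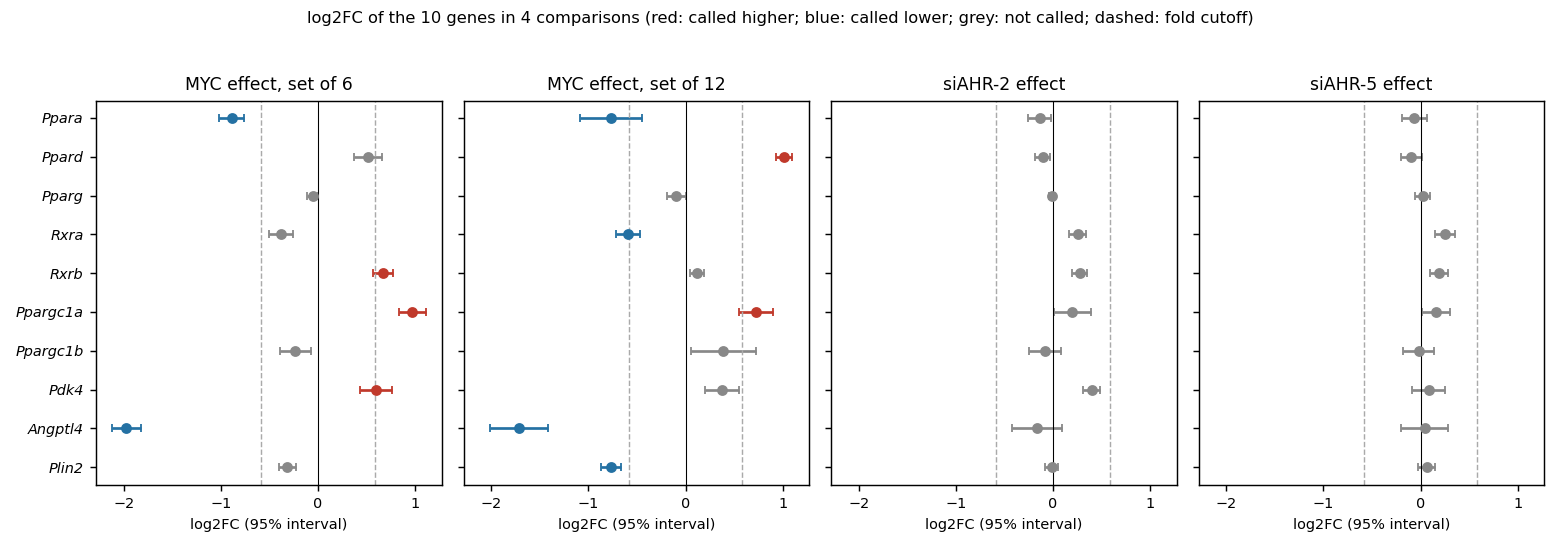
log2FC of the 10 genes (horizontal axis) with 95% intervals for MYC in each set and for each Ahr siRNA, with red and blue for genes called higher and lower, and dashed lines the fold cutoff of 0.585. Angptl4 lies at -1.97 and -1.72 with MYC, and no gene passes the cutoffs with either siAHR.

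The balance within 3 pairs of related genes was followed library by library. The log2 value of Ppard minus that of Ppara was 1.97 ± 0.0462 (SD, n = 3) in myc-/- siCtrl and 3.38 ± 0.127 in myc-/- + MYC, a shift of 1.41. It was 1.90 ± 0.251 in myc-/- and 3.68 ± 0.0162 in myc-/- + MYC siCtrl of the 12-library set, a shift of 1.78. Rxrb minus Rxra shifted by 1.05 in the 6-library set and by 0.71 in the 12-library set. Ppargc1a minus Ppargc1b shifted by 1.20 and by 0.33, and in the 12-library set both genes had a positive log2FC (0.72 and 0.39). With siAHR-2 and siAHR-5 the means of these differences moved by at most 0.28 from siCtrl, a shift of Ppargc1a minus Ppargc1b with siAHR-2 that was close in size to its 0.33 with MYC. The values are not divided by gene length, so only the shift within a pair is compared and not which gene of a pair has more transcripts. The pairs were formed after the values were seen, and the shifts are given without a test.

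**Figure D3:**
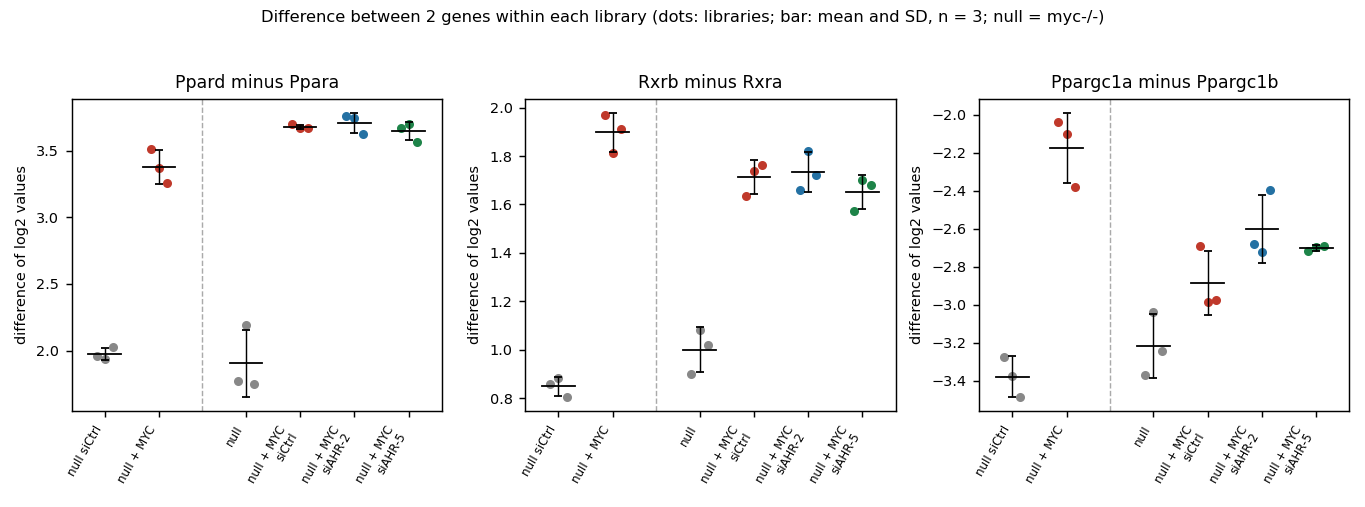
Difference between the deposited log2 values of 2 related genes in each library (vertical axis) for Ppard minus Ppara, Rxrb minus Rxra and Ppargc1a minus Ppargc1b, with dots for libraries and bars for mean and SD (n = 3). Ppard minus Ppara lies between 1.75 and 2.19 in the myc-/- libraries of the 12-library set and between 3.67 and 3.70 in myc-/- + MYC siCtrl.

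The 2 MYC comparisons were set against each other in 1 fit of 12 libraries. Of the 10 genes 1 differed past the cutoffs between the sets, against 16.5% of all genes. It was Ppargc1b, whose log2FC was higher by 0.62 in the 12-library set (SE 0.147, limma adjusted p = 0.00226). Leaving out library 2 of myc-/- brought that to 0.48, library 3 of myc-/- + MYC siCtrl to 0.58 and library 1 of myc-/- + MYC to 0.56, all below the fold cutoff. For Rxrb the difference was -0.55 (limma adjusted p = 5.09e-06), for Ppard 0.49 (limma adjusted p = 2.1e-04) and for Plin2 -0.45 (limma adjusted p = 2.63e-05), none of them reaching the fold cutoff. Rxrb did reach it, and was called, under quantile normalization of all 12 libraries (-0.63) and inside each set (-0.60). Rxra and Pdk4, each called in 1 set, had differences of -0.22 and -0.22 (limma adjusted p = 0.0407 and 0.105). Ppargc1a, called in both sets, had a difference of -0.25 (95% interval -0.46 to -0.03, limma adjusted p = 0.0482). It was -0.09 under quantile normalization of the 12 libraries. The 95% interval of the difference was -0.17 to 0.41 for Ppara and -0.04 to 0.56 for Angptl4. Both depended on the scaling: under quantile normalization of the 12 libraries together the difference was 0.71 for Angptl4, which was then called (limma adjusted p = 2.5e-04), and 0.41 for Ppara (limma adjusted p = 0.00931). With quantile normalization inside each set, chosen after seeing the data, they were 0.41 and 0.20, and neither was called.

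The siAHR groups ask which of the genes that differ with MYC also depend on AHR, a ligand-activated transcription factor. Ahr itself fell by 1.29 with siAHR-2 and by 1.39 with siAHR-5 (limma adjusted p = 2.4e-04 and 2.2e-04). With blocking on the replicate number, 0 of all genes were called with siAHR-2, so the call of Ahr was lost there. None of the 10 genes passed the cutoffs with either siRNA: 0 of 10 with siAHR-2, against 0.47% of all genes, and 0 of 10 with siAHR-5, against 2.32%. By limma at an unadjusted p under 0.05 there were 6 genes with siAHR-2, against 40.4% of all genes, and 3 with siAHR-5, against 47.8%. Both comparisons share the siCtrl libraries with each other and with the MYC comparison in the 12-library set.

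Without the fold cutoff, at a limma adjusted p below 0.05, there were 4 genes with siAHR-2, against 29.3% of all genes, and 2 with siAHR-5, against 39.2%. Rxra was at 11.49, 11.45 and 11.39 with siCtrl, at 11.73, 11.66 and 11.70 with siAHR-2 and at 11.73, 11.71 and 11.64 with siAHR-5. The change was 0.25 on the log2 scale with each siRNA (SE 0.0355 and 0.0403, limma adjusted p = 0.00565 and 0.00595). Both siAHR groups lay wholly above siCtrl and below myc-/-, where Rxra was at 11.97 or more.

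Rxrb was at 13.12, 13.19 and 13.16 with siCtrl and at 13.39, 13.48 and 13.42 with siAHR-2 (log2FC 0.27, limma adjusted p = 0.00262). With siAHR-5 it was at 13.31, 13.41 and 13.32 (log2FC 0.19, limma adjusted p = 0.0112). These values were above those of myc-/- as well as of siCtrl.

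Pdk4 gave unlike values with the 2 siRNAs, though their difference did not pass the cutoffs. It was at 9.32, 9.33 and 9.35 with siCtrl and at 9.69, 9.74 and 9.76 with siAHR-2, a log2FC of 0.40 (SE 0.0352, limma adjusted p = 0.00149) and the largest of the 10 genes with either siRNA. With siAHR-5 it was at 9.44, 9.29 and 9.52, which overlaps siCtrl (log2FC 0.08, limma adjusted p = 0.391, and -0.06 under quantile normalization). The direct comparison gave -0.31 for siAHR-5 minus siAHR-2 (limma adjusted p = 0.0166). Under the alternatives the limma adjusted p of this difference ranged from 0.0046 to 0.0602. Ppard was the fourth gene with siAHR-2, at 13.21, 13.20 and 13.17 against 13.33, 13.33 and 13.24 (log2FC -0.11, limma adjusted p = 0.0420), and with siAHR-5 its log2FC of -0.10 had a limma adjusted p of 0.136. Both depended on the scaling. Quantile normalization gave -0.09 with siAHR-2 (limma adjusted p = 0.0574), and median centring gave -0.16 with siAHR-5 (limma adjusted p = 0.0128).

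The remaining genes gave intervals around 0 or close to it. Angptl4 was at 7.18, 7.13 and 7.04 with siAHR-2 and at 7.37, 7.31 and 7.29 with siAHR-5, against 7.49, 7.14 and 7.22 with siCtrl. The 95% interval of its log2FC was -0.42 to 0.09 with siAHR-2 and -0.20 to 0.29 with siAHR-5, and the siRNAs differed from each other by 0.21 (limma adjusted p = 0.0229, or by 0.13 with an adjusted p of 0.103 under quantile normalization). For Ppara the intervals were -0.25 to -0.02 and -0.20 to 0.07, while quantile normalization gave log2FC of -0.21 with each siRNA (limma adjusted p = 0.0245 and 0.0277), short of the cutoffs. The intervals for Plin2 were -0.08 to 0.05 and -0.03 to 0.15. Ppargc1a had log2FC of 0.20 and 0.16 (limma adjusted p = 0.112 and 0.0755), with each siAHR library above every siCtrl library, and under quantile normalization the siAHR-5 value was 0.03. Ppargc1b had -0.09 and -0.02 and Pparg -0.01 and 0.02, all with overlapping libraries. Between the siRNAs 0 of 10 genes passed the cutoffs, against 2.18% of all genes, and 2 (Pdk4 and Angptl4) had a limma adjusted p below 0.05, against 39.1%. The same 2 genes were those with a limma unadjusted p under 0.05, against 46.8% of all genes. Libraries with and without siAHR did not overlap for 6 of the 10 genes with siAHR-2, against 43.3% of all genes, and for 3 with siAHR-5, against 50.5%.

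The other genes of the pathway were counted by role with MYC. Of 15 cofactors and genes of the PGC-1 axis, 0 rose and 2 fell in the 6-library set, and 2 rose and 2 fell in the 12-library set. Esrrg, an orphan receptor that works with PGC-1α, had the largest falls (log2FC -3.98 and -5.26), and Nrip1, a corepressor of nuclear receptors, fell with -0.64 and -1.25. The coactivator Ncoa1 and the Mediator subunit Med1 rose in the 12-library set (log2FC 0.88 and 0.81), while in the 6-library set they were at 0.53 and 0.54, below the fold cutoff. Without library 2 of myc-/-, which was the lowest of its group for both, their log2FC in the 12-library set was 0.76 and 0.60, and both were still called. The median log2FC of the cofactors was 0.06 and 0.14, against 0.00 over all genes in both sets.

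Of 10 other receptors that pair with RXR, 1 rose and 2 fell in the 6-library set, and 0 rose and 4 fell in the 12-library set. Their median log2FC was -0.04 and -0.39, the second the farthest from 0 of the 5 role groups in either set. The thyroid hormone receptor Thrb fell in both (log2FC -2.40 and -3.34), as did the orphan receptor Nr4a2 (log2FC -0.70 and -2.16). Thra, the other thyroid hormone receptor, was higher in the 6-library set (log2FC 0.59). The retinoic acid receptor Rarg was lower in the 12-library set (log2FC -0.79), and so was Nr4a1 (log2FC -0.61), which in the 6-library set had the opposite sign (log2FC 0.50, below the fold cutoff). With siAHR-5, Nr4a1 was at 0.76 above siCtrl (limma adjusted p = 7.6e-04) and was the one gene of the 5 role groups called with either siRNA. Its mean was also higher with siAHR-2, at 12.245 against 11.70 with siCtrl, but it was not called. Of all genes 0.47% were called with siAHR-2 and 2.32% with siAHR-5.

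Of 9 PPAR targets in fatty acid uptake, binding and activation, 1 rose and 2 fell in the 6-library set and 0 rose and 1 fell in the 12-library set. The fatty acid transport protein Slc27a4 fell in both (log2FC -0.86 and -0.93). The acyl-CoA synthetase Acsl5 (log2FC -0.96) fell and the fatty acid binding protein Fabp4 (log2FC 0.70) rose in the 6-library set. Cd36, the fatty acid translocase, had a log2FC of 0.09 and 0.02, but its values in the 12-library set were all between 2.33 and 2.43, close to its lowest, where a change could not be read. The median log2FC of these targets was -0.06 and 0.02.

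Of 21 PPAR targets in mitochondrial and peroxisomal oxidation, 5 rose and 0 fell in the 6-library set, and 3 rose and 1 fell in the 12-library set. The mitochondrial carrier Ucp2 rose most (log2FC 4.22 and 3.38), ahead of Etfdh, which passes electrons from fatty acid oxidation to ubiquinone (log2FC 0.94 and 0.91). The medium-chain acyl-CoA dehydrogenase Acadm also rose in both sets (log2FC 0.72 and 0.73), and the thioesterase Acot2 (log2FC 0.88) in the 6-library set. Cpt1a, the enzyme that admits long-chain fatty acids to mitochondria, was the gene that fell in the 12-library set (log2FC -1.06), and it had a log2FC of -0.50 in the 6-library set. The median log2FC of the oxidation genes was 0.15 and 0.09.

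Of 8 relatives of the 3 targets and other lipid droplet genes, 2 rose and 1 fell in the 6-library set and 2 rose and 2 fell in the 12-library set. The secreted protein Angptl2 fell far more than Angptl4 (log2FC -4.11 and -5.88), while Angptl6 rose (log2FC 0.75 and 0.64). Among the kinases of the Pdk4 family, Pdk2 rose in the 6-library set (log2FC 0.93), Pdk1 rose in the 12-library set (log2FC 1.18) and Pdk3 fell in the 12-library set (log2FC -0.63). The median log2FC of this last group was 0.01 and 0.03. In all 5 role groups the calls stand against the shares of all genes given above for each direction, and without library 2 of myc-/- every gene of the 5 groups kept its call in the 12-library set. Genes of these groups that were not analysed here include Rxrg, Ncoa3, Ep300, Fabp5, Lpl, Plin1, Plin3, Plin4, Plin5, G0s2 and Hilpda.

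**Figure D4:**
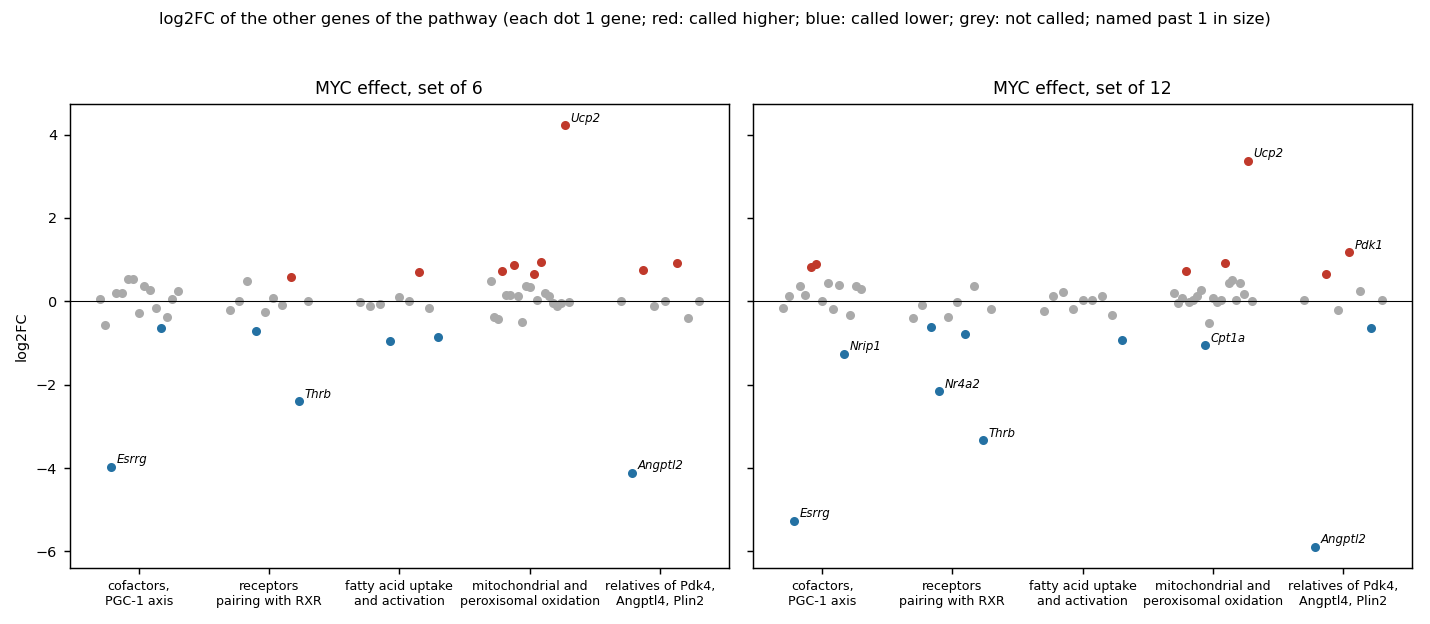
log2FC with MYC (vertical axis) of the other genes of the pathway in 5 role groups, in the 6-library set and the 12-library set, 1 dot a gene. Red and blue mark genes called higher and lower, and names are given past a log2FC of 1 in size. Ucp2 lies highest, at 4.22 and 3.38, and Angptl2 lowest, at -4.11 and -5.88.

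Several markers of the labelled cell type differed with MYC, not all in 1 direction. All 9 fibroblast markers were in the table, and within the smaller set 4 were called lower and 1 higher, within the larger set 5 lower and 0 higher. Of all genes, 14.3% and 14.7% were called lower and 12.5% and 10.8% higher in the smaller and larger sets. Their levels taken off the log scale and summed ran from 1846000 to 1869000 in myc-/- siCtrl and from 977100 to 1039000 in myc-/- + MYC. The corresponding sums ran from 4063000 to 4752000 in myc-/- and from 1226000 to 1249000 in myc-/- + MYC siCtrl of the larger set. Col1a1 and Fn1, both called lower in each set, made up 34.5% and 38.9% of the sum in myc-/- siCtrl and 47.0% and 31.8% in myc-/-. Col3a1 was the marker that rose in the smaller set (log2FC 1.30). Vim was at 18.3 or more in each group mean, and Col1a2 was the 1 marker with group means below 5. Of 8 adipocyte markers 6 were in the table, and their summed level was also lower with MYC: 2302 to 2671 against 1308 to 1445 in the 6-library set, and 1139 to 1213 against 673.9 to 781.5 in the 12-library set. The floor of the table differs between genes and lies above 0, so an undetected marker cannot be read from a 0. Group means were below 5 for 2 of the 6 adipocyte markers in the groups of the 6-library set and for 4 in those of the 12-library set. Among the adipocyte markers Cebpa, a transcription factor of fat cell formation, fell in both sets (log2FC -1.19 and -0.88), while in the 6-library set Fabp4 rose (log2FC 0.70) and Adipoq was called lower. The 3 libraries of myc-/- + MYC had Adipoq at nearly 1 value, 5.76, the lowest of that set, so the size of its fall is not given. In the 12-library set Adipoq stayed between 2.42 and 2.51 in every library. Cebpa alone made up 50.9% to 76.6% of the summed level in these 4 groups. Cebpa and the fibroblast marker Thy1 were higher with siAHR-5 (log2FC 0.76 and 0.75), where 0 of the 10 genes were called. In bulk libraries, fewer cells of a type and less RNA per cell cannot be told apart, and the part of these markers in the results for the 10 genes was not tested. Of the other cell types, 1 of 4 epithelial and 1 of 4 endothelial markers rose in the 6-library set, Krt8 (log2FC 1.70) and Tek (log2FC 1.61), and Krt8 also rose in the larger set (log2FC 1.17). Of the leukocyte and muscle markers, 1 of 4 and 2 of 3 fell in the 6-library set, and 1 of 4 and 3 of 3 in the 12-library set. With lists this short, these counts are given only as values beside the 14.3% and 14.7% of all genes called lower.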

How the data were processed

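RNA-seq of 18 libraries in 6 groups of 3 was used, with groups and replicate numbers from the sample labels and columns matched to samples by name. Per the paper's methods and the submitters' processing notes, the authors ran the NGS-QC-Toolkit on the reads, used HISAT2 2.1.0 for alignment to the rat build rn6, dropped genes with few reads and normalized with DESeq2. The read counter is not given in the sources used here. The authors deposited log2 values, 1 for each of 13188 genes and each library, with replicates kept apart. Its label says log CPM. Values taken off the log scale sum to between 86.3 and 161 times what CPM would give, so the transformation is unknown, its effect on fold changes of low genes was not tested, and neither counts nor depth can be recovered. The spread between the 3 libraries of a group is the only measure of precision.

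Comparisons were fitted with limma 3.58.1 in R 4.3.3 (lmFit, then eBayes with its trend option) on the values as deposited, only the libraries compared entering each fit, with Benjamini-Hochberg adjustment over all genes. The fits were tested on simulated data. Python 3.11.15 and matplotlib 3.10.9 made the figures. The 10 genes and the lists of pathway and marker genes were chosen with earlier results of these data known. All 10 genes were named, and from each pathway list up to 3 called genes with the largest rise and up to 3 with the largest fall in a comparison. Genes named beside these to show the value in the other set, Cd36 and the markers were picked after their values were seen. Alternatives were another cutoff, all libraries in 1 fit, no trend, quantile normalization, median centring, blocking on the replicate number, a filter that keeps genes with a mean log2 value of 1 or more, adding a pseudocount of 1, and leaving out single libraries. The Ppard promoter was not analysed here. Promoters came from RefSeq GRCr8, another assembly than rn6, and no rn6 coordinates are given.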

Additional observations from a re-analysis of the deposited data

Results flagged for a closer look

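The effect of MYC on Ppargc1b differed between the 2 sets of libraries. The log2FC was -0.23 in the 6-library set (myc-/- + MYC against myc-/- siCtrl) and 0.39 in the 12-library set (myc-/- + MYC siCtrl against myc-/-), and the difference of 0.62 was tested in 1 fit of 12 libraries (SE 0.147, limma adjusted p = 0.00226). It fell short of the fold cutoff when any 1 of 3 libraries was left out: 0.48 without library 2 of myc-/-, 0.56 without library 1 of myc-/- + MYC and 0.58 without library 3 of myc-/- + MYC siCtrl. By the sample labels, transfection goes with MYC in opposite order in the sets, the sets are on different scales, and what part either has in the difference was not tested.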

How the results depend on the processing

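Under the alternatives, the log2FC of a gene among the 10 in the MYC comparisons never changed sign. The counts of called genes among the 10 were 4 to 9 in the 6-library set and 4 to 9 in the 12-library set. Those of all genes were 3483 to 10051 and 3263 to 8538. With an adjusted p below 0.05 and no fold cutoff, 9 of the 10 genes and 10051 of all genes were called in the 6-library set, and 8538 of all genes in the 12-library set. By that cutoff 4 of the 10 and 3860 of all were called with siAHR-2, 2 and 5169 with siAHR-5, 6 and 7235 for the difference between the MYC effects, and 2 and 5151 between the siRNAs. This follows from the cutoff itself. For the other values here that moved, the cause was not tested. For the difference between the MYC effects, 3 of the 10 genes were called under quantile normalization (Ppargc1b, Angptl4 and Rxrb). Quantile normalization within each set, added after seeing the data, gave 2 (Ppargc1b and Rxrb). Leaving out single libraries gave 0 to 1. Of all genes, 2208, 2186 and 2139 to 2231 were called in these settings in turn. Whether the replicate numbers pair the libraries is not stated. In the MYC comparisons the correlation of same-numbered deviations was -0.26 to 0.24 in the 12-library set and no higher than 0.01 in the 6-library set. Its mean was 0.01 for siAHR-2 against siCtrl (-0.005 for unlike numbers) and 0.10 for siAHR-5 against siCtrl (-0.05 for unlike numbers). With 3 pairs in each comparison, these values do not decide whether the numbers mark pairs. With the replicate block, 0 of all genes were called with siAHR-2 against 62 without it, with 5030 at an unadjusted p under 0.05 by limma, and Ppara with MYC in the 12-library set had an adjusted p of 0.0106 at the same log2FC of -0.77. Changes of sign were all in values that were not called. For siAHR-5 they were Pparg (-0.001 by quantile normalization, -0.0385 by median centring, -0.0121 to 0.0379 with libraries left out), Pdk4 (-0.0623 by quantile normalization), Angptl4 (-0.0958 and -0.019 by these scalings, -0.0316 to 0.146 with libraries left out) and Ppargc1b (-0.0787 to 0.0233 with libraries left out). For the difference between the MYC effects they were Pparg (0.0468 by median centring, -0.0701 to 0.0058 with libraries left out) and Ppara (-0.0244 to 0.203). Between the siRNAs they were Ppard (-0.0179 by median centring, -0.0254 to 0.0404 with libraries left out), Rxra (-0.0236 to 0.0246) and Ppargc1a (-0.0823 to 0.0292). The median log2FC over all genes lay between -0.05 and 0.07 under both scalings. Depth is unknown, and Pparg in particular sits too close to the lowest values for a change to be read.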
